A study of Mus musculus with 4 samples.

Results

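The genes described here are 35 genes of cholesterol handling, set out by role: 17 enzymes of cholesterol synthesis, 6 genes of sterol sensing by the SREBP system, the 2 liver X receptor (LXR) genes, 5 LXR targets with roles in efflux and lipoprotein turnover, and 5 genes of oxysterol formation, esterification and lysosomal transport. They were taken by name, under a rule that uses no measured value, out of 22911 genes that a probe could be matched to by RefSeq accession. Earlier results of these data were known when the genes were chosen. All 35 had a probe, and all 35 were well above background on every array. Where a gene had several probes, its brightest one over the 4 arrays stands for it.

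Cells labelled as peritoneal macrophages, and PEC (peritoneal exudate cells) in the sample titles, came from lavage of mice given 4% thioglycollate 3 days earlier. Thioglycollate draws such cells into the peritoneum. They were kept in RPMI medium with 10% serum, and their total RNA was read on 1-colour Agilent arrays. There were 4 groups with 1 array each: LysM-St18flox cells after 3 h of lipopolysaccharide (LPS, a bacterial cell wall component that activates Toll-like receptor 4), LysM-St18flox cells at 0 h, wild-type cells after 3 h of LPS and wild-type cells at 0 h. LysM is the name of a lysozyme promoter often used for Cre deletion in myeloid cells, neutrophils included, while St18 codes for a transcription factor with zinc fingers. The labels used here give no dose of LPS, no age, strain or number of mice, and no alleles of the wild-type animals. With 1 array per group no difference below has a replicate check and none was tested, and a gene is "called" where a pair of arrays differed by a factor of 2 or more, which is 1 on the log2 scale.

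Cells make cholesterol from acetyl-CoA by way of mevalonate and squalene. When membranes run low in sterol, SCAP escorts the SREBP transcription factors out of the endoplasmic reticulum and synthesis genes are induced, whereas INSIG proteins hold the complex back. When oxysterols accumulate, the LXR receptors induce genes that export cholesterol. In macrophages these arms meet inflammatory signalling, among other places through the oxysterol made by CH25H, which holds SREBP processing back.

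The synthesis genes share a start-site feature that the choice of genes did not use, and 4 windows are shown because their genes lie at opposite ends of the LPS response described below (Mvd and Dhcr7 lower, Hmgcs1 and Idi1 slightly higher). Each line is a RefSeq window of 300 bases around an annotated start (build GRCm38.p6), most of it upstream, 5′ to 3′, with capitals on matches to the NF-Y box CCAAT and the sterol regulatory element TCACNCCAC, on either strand.
Mvd, chr8:122443373-122443672, minus strand: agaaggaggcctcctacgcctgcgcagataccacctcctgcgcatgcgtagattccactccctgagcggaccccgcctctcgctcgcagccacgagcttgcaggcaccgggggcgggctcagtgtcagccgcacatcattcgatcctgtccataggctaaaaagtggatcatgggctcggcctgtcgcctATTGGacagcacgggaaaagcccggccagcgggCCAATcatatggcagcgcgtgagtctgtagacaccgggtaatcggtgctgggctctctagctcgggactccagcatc
Dhcr7, chr7:143829964-143830263, plus strand: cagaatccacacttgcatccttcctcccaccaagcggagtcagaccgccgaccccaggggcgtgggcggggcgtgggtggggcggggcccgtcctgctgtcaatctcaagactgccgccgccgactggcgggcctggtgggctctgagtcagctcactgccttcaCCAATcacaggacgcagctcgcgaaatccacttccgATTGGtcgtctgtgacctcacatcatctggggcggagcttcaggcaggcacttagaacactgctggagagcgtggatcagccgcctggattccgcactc
Hmgcs1, chr13:119690101-119690400, plus strand: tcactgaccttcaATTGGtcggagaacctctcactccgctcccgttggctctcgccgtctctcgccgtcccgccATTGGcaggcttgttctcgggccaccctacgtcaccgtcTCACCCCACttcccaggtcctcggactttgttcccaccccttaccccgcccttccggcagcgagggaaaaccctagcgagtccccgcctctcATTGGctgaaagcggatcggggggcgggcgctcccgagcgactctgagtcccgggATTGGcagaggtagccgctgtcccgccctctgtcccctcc
Idi1, chr13:8885356-8885655, plus strand: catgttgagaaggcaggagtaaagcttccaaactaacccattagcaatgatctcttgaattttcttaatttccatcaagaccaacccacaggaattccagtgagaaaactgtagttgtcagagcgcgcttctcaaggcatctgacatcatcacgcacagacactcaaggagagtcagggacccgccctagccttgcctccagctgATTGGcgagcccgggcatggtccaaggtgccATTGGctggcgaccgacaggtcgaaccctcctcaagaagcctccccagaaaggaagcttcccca
Dhcr7 has 3 such windows in the table, and the one printed is the only one of them with a match. NF-Y, the factor that binds CCAAT, is a known partner of SREBP at sterol-regulated promoters.

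Windows were found for 29 of the 35 genes, 14 of them synthesis enzymes. Fdps, Fdft1, Sqle, Stard4, Abcg1 and Npc1 were not matched. Of those 14, all 14 had a CCAAT box in a window, against 41.1% of the 27025 genes with a window, and 9 of 15 sensing, LXR, efflux and transport genes had one. Counted by window, the box was in 14 of 17 windows of synthesis genes and in 37.4% of all windows. The sterol regulatory element was matched only at Hmgcs1 among the 29, against 1.44% of all genes. The interferon-stimulated response element core (GAAA, any 2 bases, GAAA) was matched only at Ebp, against 3.99% of all genes, and not in the window of Ch25h. A match says that these letters are in the window and does not show binding. Of the windows printed, those of Mvd, Dhcr7 and Idi1 each held 2 CCAAT boxes and that of Hmgcs1 held 4.

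**Figure D1:**
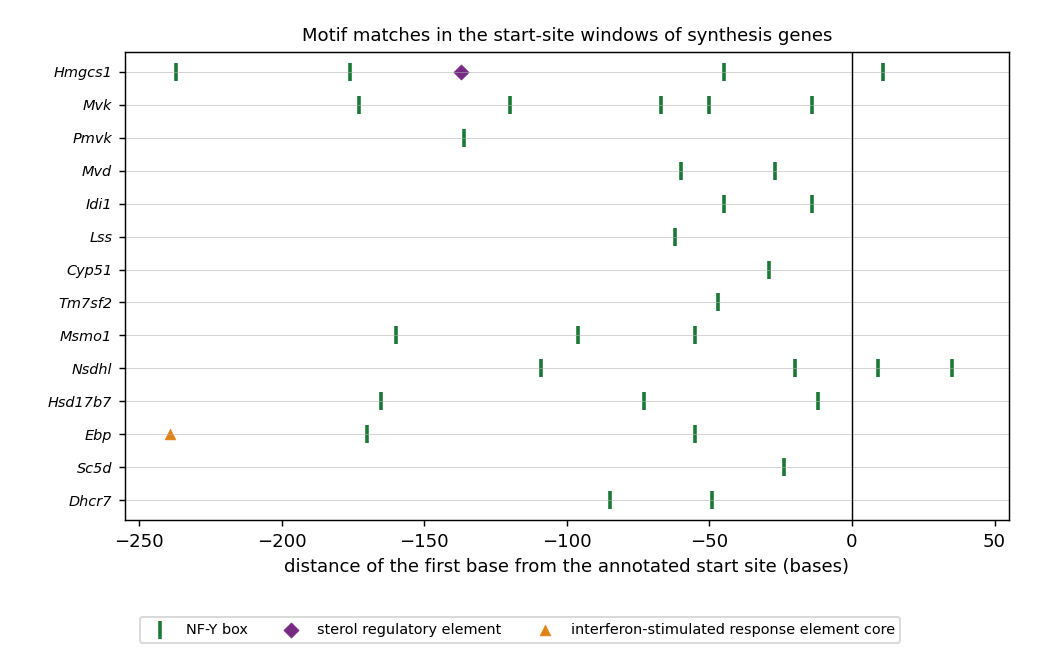
Positions of motif matches in the start-site windows of the 14 synthesis genes that have a window. The horizontal axis is the distance in bases of the match's first base from the annotated start site, and each mark is 1 match on either strand. Every gene shows at least 1 NF-Y box, most of them upstream of the start, only Hmgcs1 shows a sterol regulatory element (diamond), and only Ebp shows the interferon-stimulated response element core (triangle).

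Some facts of the arrays bear on what follows. The 75th percentile of the spot signal, to which each array was scaled, was 882 at LysM-St18flox 3 h, 1067 at LysM-St18flox 0 h, 755 at wild-type 3 h and 672 at wild-type 0 h. St18, at its brightest probe, was not well above background on either LysM-St18flox array. It was lower there than in wild-type by at least 8.48-fold at 3 h, and the bound at 0 h was 7.07-fold. The sources used here do not say whether this probe falls within the floxed stretch. All 10 macrophage markers were well above background on every array. The wild-type 0 h array stood apart in how far probes of 1 gene disagreed: the median standard deviation between probes was 0.23 (log2) there, against 0.10 to 0.13 on the other arrays. It enters the wild-type LPS response and the genotype difference at 0 h, whereas the LysM-St18flox LPS response and the genotype difference at 3 h were obtained without it. The same spread, taken over the log2 difference of a comparison, had a median of 0.13 for the LysM-St18flox LPS response, 0.32 for the wild-type LPS response, 0.275 for the genotype difference at 0 h and 0.11 at 3 h, and serves below as a technical yardstick that says nothing of mice or cultures.

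Ch25h, which encodes the hydroxylase that forms an LXR-activating and SREBP-blocking oxysterol, had by far the largest LPS response of the 35 genes. Its normalized log2 signal (relative to the 75th percentile of the array) was 5.41 at LysM-St18flox 3 h, -2.49 at LysM-St18flox 0 h, 5.19 at wild-type 3 h and -2.21 at wild-type 0 h. Both 3 h arrays lay far above both 0 h arrays, whereas LysM-St18flox differed from wild-type by 0.22 at 3 h and by -0.28 at 0 h. The LPS difference was 239-fold in LysM-St18flox cells, the 5th highest of 12976 genes tested, and 169-fold in wild-type cells, the 10th highest of 12589. These folds rest on dim 0 h signals, 189 in LysM-St18flox cells and 145 in wild-type cells. With normexp background correction the log2 difference was 7.44 in LysM-St18flox cells, against 7.90, and 6.80 in wild-type cells, against 7.40.

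**Figure D2:**
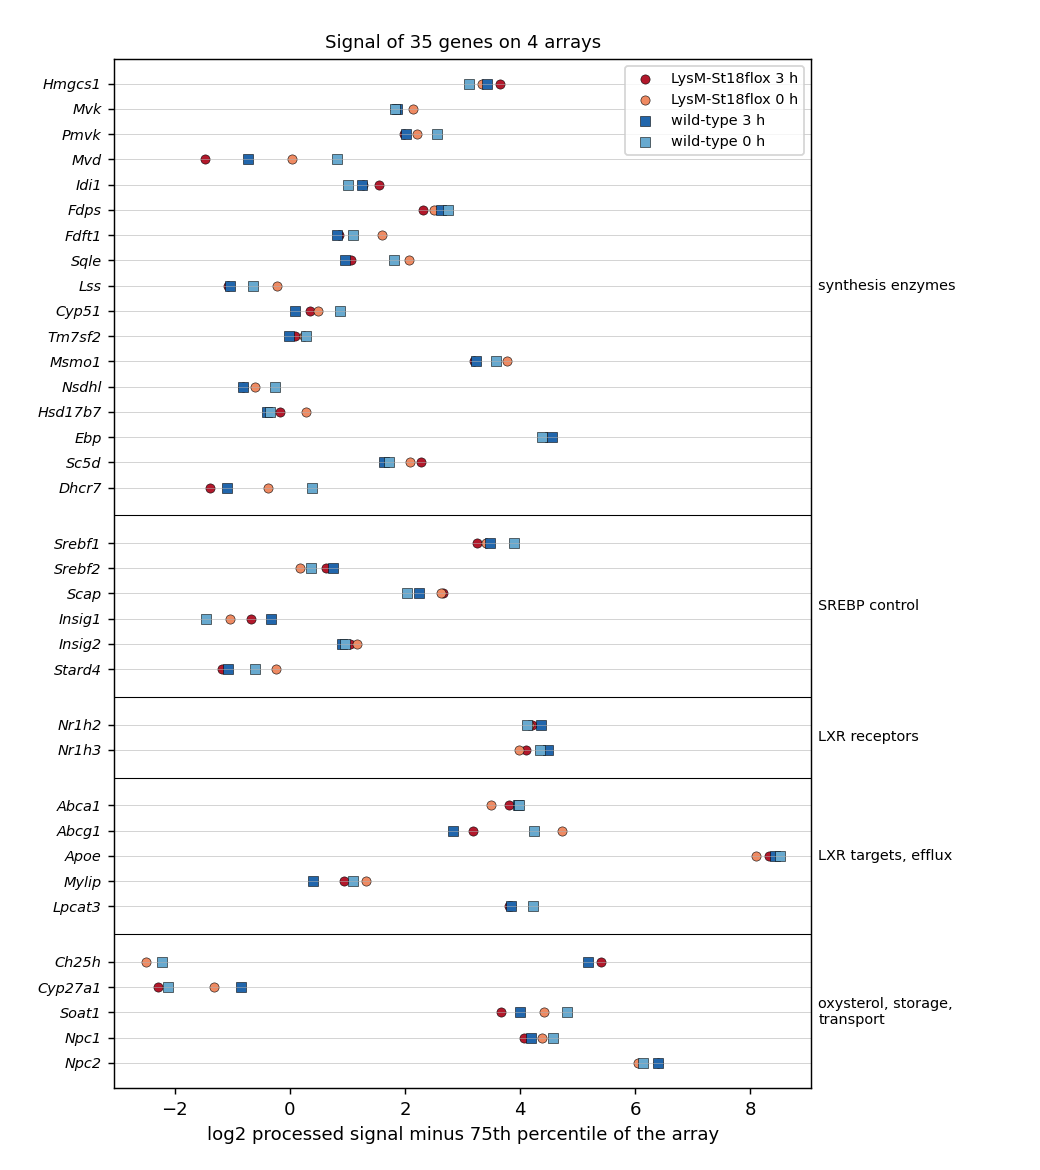
Normalized log2 signal of the 35 genes on the 4 arrays, by role. The horizontal axis is log2 processed signal minus the 75th percentile of the array, and each point is the brightest probe of the gene on 1 array. Rows cannot be compared with each other, since each probe has its own efficiency. Within its row Ch25h separates by time, at 5.41 and 5.19 after LPS against -2.49 and -2.21 before.

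The synthesis enzymes were lower after LPS on balance, by small amounts, with a few larger differences. In LysM-St18flox cells 14 of 17 were below 0 with a median log2 difference of -0.24, and in wild-type cells 13 of 17 with a median of -0.29. Over all genes tested the median was -0.09 in LysM-St18flox cells, with 57.0% of genes below 0, and -0.11 in wild-type cells, with 56.8% below 0, a lean in the same direction. The number of enzymes lower in both genotypes was 12, and 2 were higher in both (Hmgcs1 and Idi1) and 3 had opposite signs (Mvk, Ebp and Sc5d). Of the 17, 3 were called lower and none higher in LysM-St18flox cells, where 8.97% of all genes were called lower. In wild-type cells 2 were called lower and none higher, where 11.6% of all genes were called lower. Called higher were 8.12% of all genes in LysM-St18flox cells and 9.04% in wild-type cells. Among the 7 enzymes up to squalene the median was -0.24 in LysM-St18flox cells and -0.12 in wild-type cells, and among the 10 later ones it was -0.33 in LysM-St18flox cells and -0.37 in wild-type cells.

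Mvd encodes the decarboxylase that makes isopentenyl diphosphate. It read -1.48 at LysM-St18flox 3 h, 0.04 at LysM-St18flox 0 h, -0.72 at wild-type 3 h and 0.82 at wild-type 0 h. Both 3 h values were under both 0 h values, and within each time the LysM-St18flox value was the lower one. Mvd was 2.87-fold lower after LPS in LysM-St18flox cells and 2.91-fold lower in wild-type cells, nearly the same size.

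Dhcr7, which encodes the reductase of the last step to cholesterol, read -1.39 at LysM-St18flox 3 h, -0.37 at LysM-St18flox 0 h, -1.10 at wild-type 3 h and 0.38 at wild-type 0 h. It was 2.03-fold lower after LPS in LysM-St18flox cells, just past the 2-fold line, and 2.79-fold lower in wild-type cells. As with Mvd, the 3 h arrays did not overlap the 0 h arrays and LysM-St18flox lay under wild-type at each time.

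Sqle, which encodes squalene epoxidase, read 1.06 at LysM-St18flox 3 h, 2.07 at LysM-St18flox 0 h, 0.96 at wild-type 3 h and 1.80 at wild-type 0 h. Both 3 h values were the low ones. The difference was 2.01-fold lower in LysM-St18flox cells, which is at the 2-fold line, and 1.80-fold lower in wild-type cells, which is short of it. In LysM-St18flox cells the log2 differences of Sqle (-0.97 to -1.09) and Dhcr7 (-0.84 to -1.02) fell on either side of the 2-fold line over the settings tried. Lss, which encodes the cyclase that makes lanosterol, was 1.80-fold lower in LysM-St18flox cells and 1.31-fold lower in wild-type cells by its brightest probe. Its other probes gave log2 differences of -1.05 and -1.64 in LysM-St18flox cells and of -0.46 and -2.10 in wild-type cells.

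At the other end stood Hmgcs1, which encodes the synthase that precedes mevalonate formation, and Idi1, the isomerase of isopentenyl diphosphate. Hmgcs1 read 3.65 at LysM-St18flox 3 h, 3.33 at LysM-St18flox 0 h, 3.43 at wild-type 3 h and 3.11 at wild-type 0 h, a log2 difference of 0.32 in either genotype. Idi1 differed by 0.27 in LysM-St18flox cells and 0.24 in wild-type cells. These differences exceeded the probe spread of the LysM-St18flox comparison and not that of the wild-type one. The rest of the pathway lay between -0.75 (Fdft1, squalene synthase) and 0.19 (Sc5d, a sterol desaturase) in LysM-St18flox cells and between -0.78 (Cyp51, the lanosterol demethylase) and 0.17 (Ebp, a sterol isomerase) in wild-type cells, apart from the genes named above. Mvd was called lower in both genotypes, while Idi1, the next enzyme of the pathway, was above 0 in both. Fdps, which makes farnesyl diphosphate, and the genes of later sterol conversions Tm7sf2, Msmo1, Nsdhl and Hsd17b7 were below 0 in both genotypes, at -0.05 to -0.56. The mevalonate kinase gene Mvk differed by -0.31 in LysM-St18flox cells and 0.04 in wild-type cells, and the next kinase gene, Pmvk, by -0.24 in LysM-St18flox cells and -0.55 in wild-type cells.

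**Figure D3:**
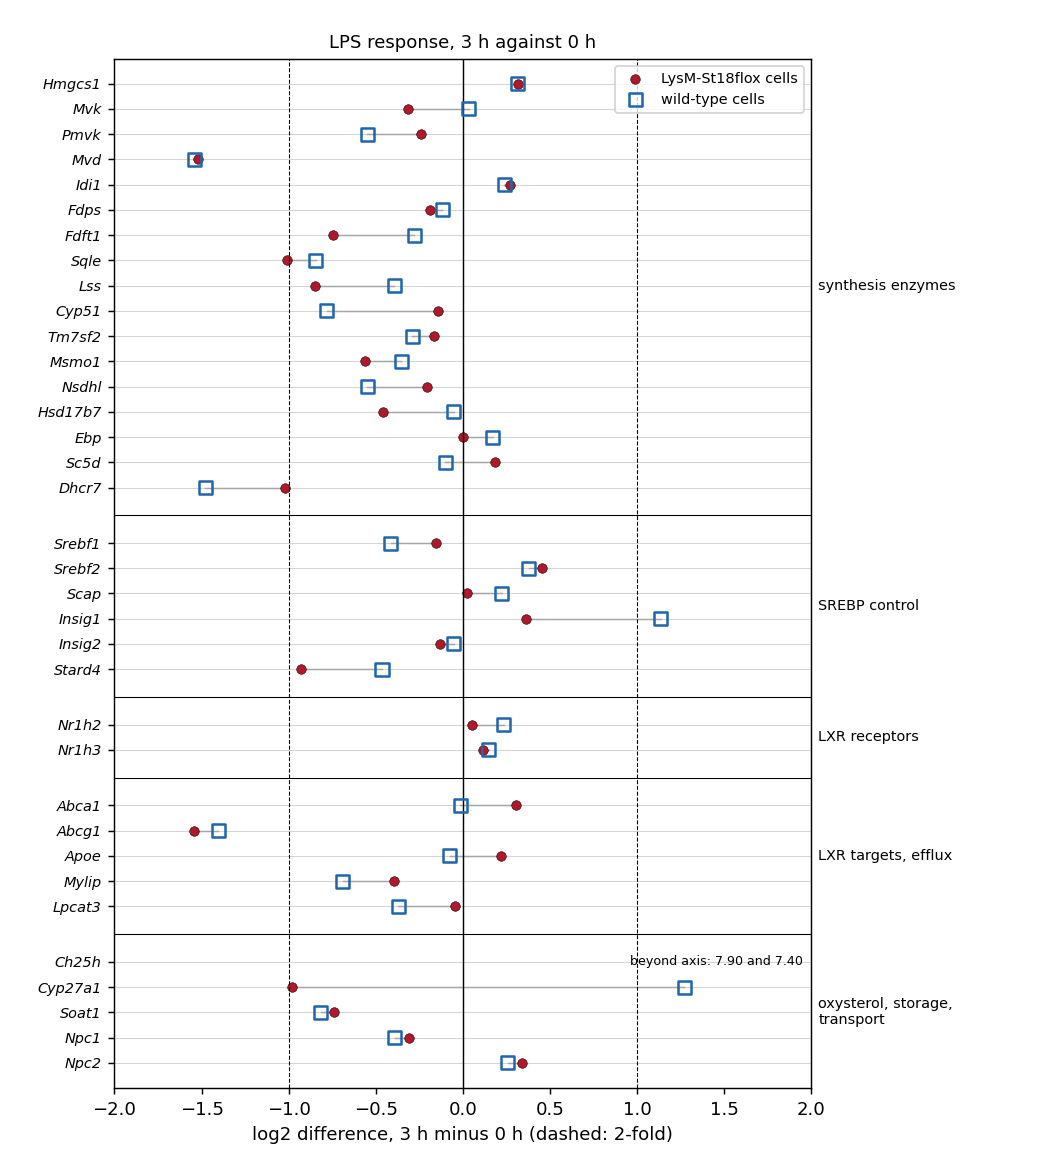
LPS response of the 35 genes in LysM-St18flox cells (filled circles) and wild-type cells (open squares), by role. The horizontal axis is the log2 difference between the 3 h and 0 h arrays, dashed lines mark 2-fold, and Ch25h lies beyond the axis at 7.90 and 7.40. Mvd, Dhcr7 and Abcg1 lie at or beyond the lower dashed line in both genotypes, and Cyp27a1 has its points on opposite sides of 0.

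The SREBP control genes showed no shared direction. Srebf2, which encodes the SREBP most tied to synthesis genes, read 0.64 at LysM-St18flox 3 h, 0.19 at LysM-St18flox 0 h, 0.75 at wild-type 3 h and 0.38 at wild-type 0 h. Its LPS difference was 0.45 in LysM-St18flox cells and 0.38 in wild-type cells, so that both 3 h arrays were above both 0 h arrays. Srebf1, whose products also drive fatty acid genes, read 3.25, 3.40, 3.48 and 3.89 on the same arrays in that order. It differed by -0.15 in LysM-St18flox cells and -0.41 in wild-type cells, and its 3 h and 0 h values overlapped.

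Scap, the escort, read 2.65 at LysM-St18flox 3 h, 2.63 at LysM-St18flox 0 h, 2.25 at wild-type 3 h and 2.03 at wild-type 0 h. Its values were set apart by genotype more than by LPS, where the difference was 0.02 in LysM-St18flox cells (-0.14 under quantile normalization, and below 0 also with normexp correction and in the authors' deposited table) and 0.22 in wild-type cells. Insig1, which encodes a retention protein and is itself an SREBP target, read -0.67 at LysM-St18flox 3 h, -1.04 at LysM-St18flox 0 h, -0.32 at wild-type 3 h and -1.46 at wild-type 0 h. It was 1.29-fold higher after LPS in LysM-St18flox cells and 2.20-fold higher in wild-type cells, where its value came down to a log2 difference of 0.76 with normexp background correction. Its relative Insig2 differed by -0.13 in LysM-St18flox cells and -0.05 in wild-type cells, and its 3 probes lay between -0.21 and 0.10 over both genotypes. Stard4, which encodes a sterol carrier, was at -0.93 in LysM-St18flox cells and -0.46 in wild-type cells by its brightest probe, and its other probe gave 0.28 in LysM-St18flox cells and 0.07 in wild-type cells.

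Neither LXR receptor gene was called in an LPS response. Nr1h2 (LXR beta) read 4.21 at LysM-St18flox 3 h, 4.16 at LysM-St18flox 0 h, 4.36 at wild-type 3 h and 4.12 at wild-type 0 h. Nr1h3 (LXR alpha) read 4.10, 3.99, 4.49 and 4.34 in the same order, with the LysM-St18flox arrays under the wild-type ones. Their LPS differences were 0.05 and 0.11 in LysM-St18flox cells and 0.23 and 0.15 in wild-type cells, and all 4 were below 0 under quantile normalization and in the authors' deposited table. By its other probe Nr1h2 was at 0.20 in LysM-St18flox cells and 0.52 in wild-type cells, and Nr1h3 at 0.02 in LysM-St18flox cells and -0.01 in wild-type cells.

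Among the LXR targets, Abcg1 stood out. It encodes a transporter that exports cholesterol to high-density lipoprotein. It read 3.18 at LysM-St18flox 3 h, 4.72 at LysM-St18flox 0 h, 2.84 at wild-type 3 h and 4.24 at wild-type 0 h, and the 3 h arrays lay well under the 0 h arrays. It was 2.91-fold lower after LPS in LysM-St18flox cells and 2.65-fold lower in wild-type cells. Abca1, the transporter that loads lipid-poor apolipoprotein, differed by 0.31 in LysM-St18flox cells and -0.01 in wild-type cells. Apoe, which encodes an apolipoprotein that macrophages secrete, differed by 0.22 in LysM-St18flox cells and -0.07 in wild-type cells. Mylip, which encodes the ubiquitin ligase that removes lipoprotein receptors, differed by -0.40 in LysM-St18flox cells and -0.69 in wild-type cells. Lpcat3, a phospholipid-remodelling enzyme, differed by -0.04 in LysM-St18flox cells and -0.37 in wild-type cells. Of the 5 targets, 3 were below 0 in LysM-St18flox cells, as were 57.0% of all genes, and 5 were below 0 in wild-type cells, as were 56.8% of all genes. In wild-type cells the values of Abca1 and Apoe lay close to 0, and their other probes were above it, at 0.25 for Abca1 and 0.36 for Apoe. Abcg1 was the only target called, where 17.1% of all genes were called in LysM-St18flox cells and 20.7% in wild-type cells.

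Cyp27a1, which encodes a mitochondrial sterol hydroxylase, had LPS responses of opposite direction. It read -2.29 at LysM-St18flox 3 h, -1.31 at LysM-St18flox 0 h, -0.84 at wild-type 3 h and -2.12 at wild-type 0 h. The high arrays were wild-type 3 h and LysM-St18flox 0 h, and the low ones LysM-St18flox 3 h and wild-type 0 h. After LPS it was 1.97-fold lower in LysM-St18flox cells and 2.42-fold higher in wild-type cells, and the LPS responses differed by -2.25 on the log2 scale. It rests on 1 probe with processed signals of 180, 431, 421 and 155 on those arrays in that order, and its wild-type LPS difference was 0.95, short of 2-fold, with normexp correction.

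Of the remaining genes of this group, Soat1, which esterifies cholesterol for storage, differed by -0.74 in LysM-St18flox cells and -0.81 in wild-type cells. Its other 3 probes gave -1.06 to -0.78 in LysM-St18flox cells and -0.87 to 1.12 in wild-type cells. The genes of lysosomal cholesterol export Npc1 and Npc2 differed by -0.31 and 0.34 in LysM-St18flox cells and by -0.39 and 0.26 in wild-type cells, so that Npc1 was lower and Npc2 higher in both.

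Over all 35 genes, 1 was called higher (Ch25h) and 4 lower (Mvd, Sqle, Dhcr7 and Abcg1) in LysM-St18flox cells, together 5 genes where 17.1% of all tested genes were called. In wild-type cells 3 were called higher (Insig1, Ch25h and Cyp27a1) and 3 lower (Mvd, Dhcr7 and Abcg1), together 6 genes where 20.7% were called. Shares of this size are near the background, so the list as a whole was not set apart by how many of its genes were called. The contrast of synthesis enzymes with the other 18 genes was a difference of medians of -0.23 in LysM-St18flox cells and -0.26 in wild-type cells, the synthesis enzymes being the lower ones. Over the settings tried this difference ran from -0.42 to -0.12 in LysM-St18flox cells and from -0.47 to -0.12 in wild-type cells. No array enters both LPS responses, and over the 35 genes they correlated at Pearson's r = 0.94, in which Ch25h lies far from the rest, and Spearman's rho = 0.73. Over 12344 genes the values were 0.86 and 0.76. The points of each correlation share their arrays and are not independent.

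Genotype differences were smaller. At 3 h 1 of 35 genes was called, Cyp27a1 at 2.72-fold lower in LysM-St18flox cells, where 3.22% of all genes were called (1.82% higher and 1.4% lower), and it was the 93rd lowest of 13049. At 0 h none was called, where the background was 6.07% (3.04% higher and 3.03% lower), and the values ran from -0.77 (Mvd) to 0.81 (Cyp27a1). The median over the synthesis enzymes was -0.01 at 3 h and 0.19 at 0 h, and over the other 18 genes it was -0.11 at 3 h and -0.14 at 0 h (0.14 when all probes of a gene were averaged). Over all genes tested it was -0.01 at 3 h and -0.03 at 0 h.

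The 2 genotype differences share no array, and 24 of 35 genes had one sign at both times (68.6%, against 63.1% of 12344 genes). Of these, 14 were lower in LysM-St18flox cells and 10 higher. Mvd was lower in LysM-St18flox cells by nearly the same amount at each time, -0.75 at 3 h and -0.77 at 0 h. Nr1h3 was at -0.39 at 3 h and -0.35 at 0 h, with its other probe at -0.47 at 3 h and -0.50 at 0 h. Also lower were Dhcr7 (-0.29 at 3 h and -0.75 at 0 h) and Srebf1 (-0.23 at 3 h and -0.49 at 0 h). Abca1 (-0.16 at 3 h and -0.48 at 0 h) and Soat1 (-0.33 at 3 h and -0.40 at 0 h) were lower too. The other probes of Soat1 ran from -0.48 to 1.63 at 0 h. Scap was on the higher side, at 0.40 at 3 h and 0.60 at 0 h. So were Sc5d (0.65 at 3 h and 0.36 at 0 h), Mylip (0.53 at 3 h and 0.23 at 0 h) and Abcg1 (0.34 at 3 h and 0.48 at 0 h). Hsd17b7 was higher too, at 0.23 at 3 h and 0.64 at 0 h. By the brightest probe, each of these values exceeded the probe spread of its comparison, except that of Mylip at 0 h, and none reached 2-fold. These genes were named after their values were seen, so that passing the spread is no test of them. The other genes with one sign at both times fell short of it at 1 time at least, such as Fdps (-0.25 at 0 h) and Idi1 (0.26 at 0 h).

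**Figure D4:**
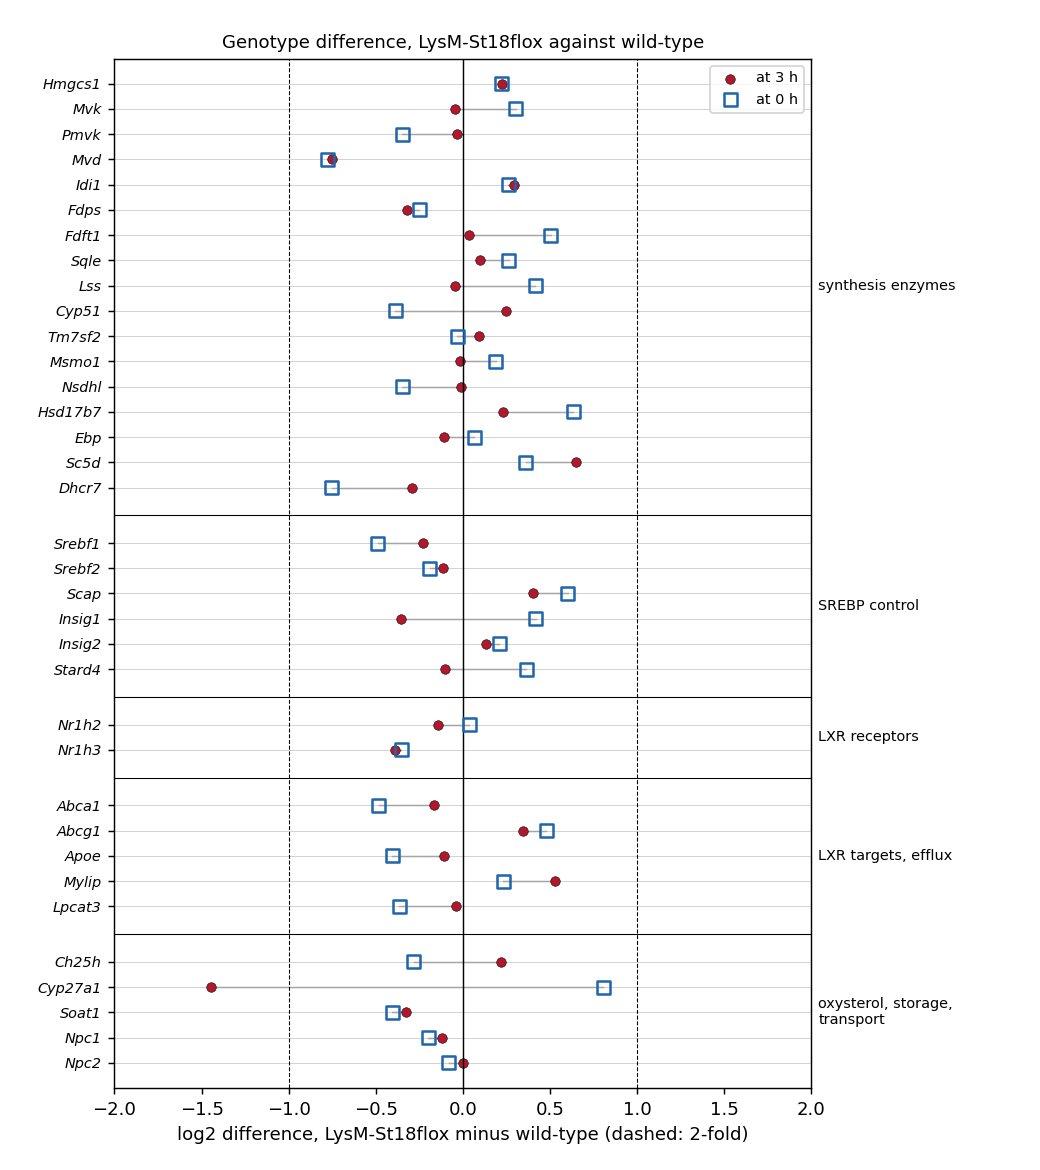
Genotype difference of the 35 genes at 3 h (filled circles) and 0 h (open squares), by role. The horizontal axis is the log2 difference of LysM-St18flox minus wild-type, and dashed lines mark 2-fold. Only Cyp27a1 at 3 h lies beyond a dashed line, at -1.44, and Mvd has nearly the same value at both times.

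Markers of other cells also differed between genotypes. Sums below are given for LysM-St18flox cells against wild-type cells. B cell markers had a summed signal, in units of the 75th percentile, of 19.6 in LysM-St18flox cells and 4.64 in wild-type cells at 3 h over 7 measured genes of 9, and of 24.6 and 6.28 at 0 h, with 5 of the 7 called higher at each time and Cd79a and Blk not well above background in wild-type. Mesothelial and fibroblast markers had all 6 measured genes called lower at each time, with sums of 2.34 against 7.13 at 3 h and 2.74 against 7.17 at 0 h, out of 8 listed. Upk3b and Lum were not well above background in LysM-St18flox cells, nor was Upk3b in wild-type cells at 3 h or Lum at 0 h. Neutrophil markers summed to 38.8 against 112 at 3 h and 34.0 against 80.4 at 0 h, with 3 of 8 called lower and 1 higher at 3 h and 4 of 9 called lower at 0 h. Macrophage markers summed to 744 against 804 at 3 h and 633 against 716 at 0 h, with none of 10 called at 3 h and 1 at 0 h. Erythroid markers summed to 94.1 against 9.49 at 3 h and 79.6 against 10.96 at 0 h, with every measured gene called higher (4 and 3). Of 8 markers of large peritoneal macrophages, 3 were called higher at 3 h and 4 at 0 h, with sums of 30.2 against 22.0 and 27.7 against 16.6. Called higher were also 4 of 6 T and NK cell, 4 of 5 mast cell and 1 of 3 eosinophil markers at 3 h, and 3 of 4, 3 of 5 and 3 of 3 at 0 h, and no dendritic cell marker was called. The part of these markers in the genotype differences above was not tested. In such bulk RNA fewer cells of a type and less RNA per cell cannot be told apart.

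All 7 genes called in any comparison (Mvd, Sqle, Dhcr7, Insig1, Abcg1, Ch25h and Cyp27a1) have 1 probe each, so no second probe bears on them. The 17 genes with several probes hold 21 further probes. Of these, 19 shared the sign of the brightest probe for the LPS response in LysM-St18flox cells and 14 did in wild-type cells. Probes of Pmvk, Msmo1 and Fdft1 lay close together in LysM-St18flox cells, whereas those of Cyp51 had opposite signs in wild-type cells (-0.78 and 0.53), as had those of Apoe in both genotypes.

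**Figure D5:**
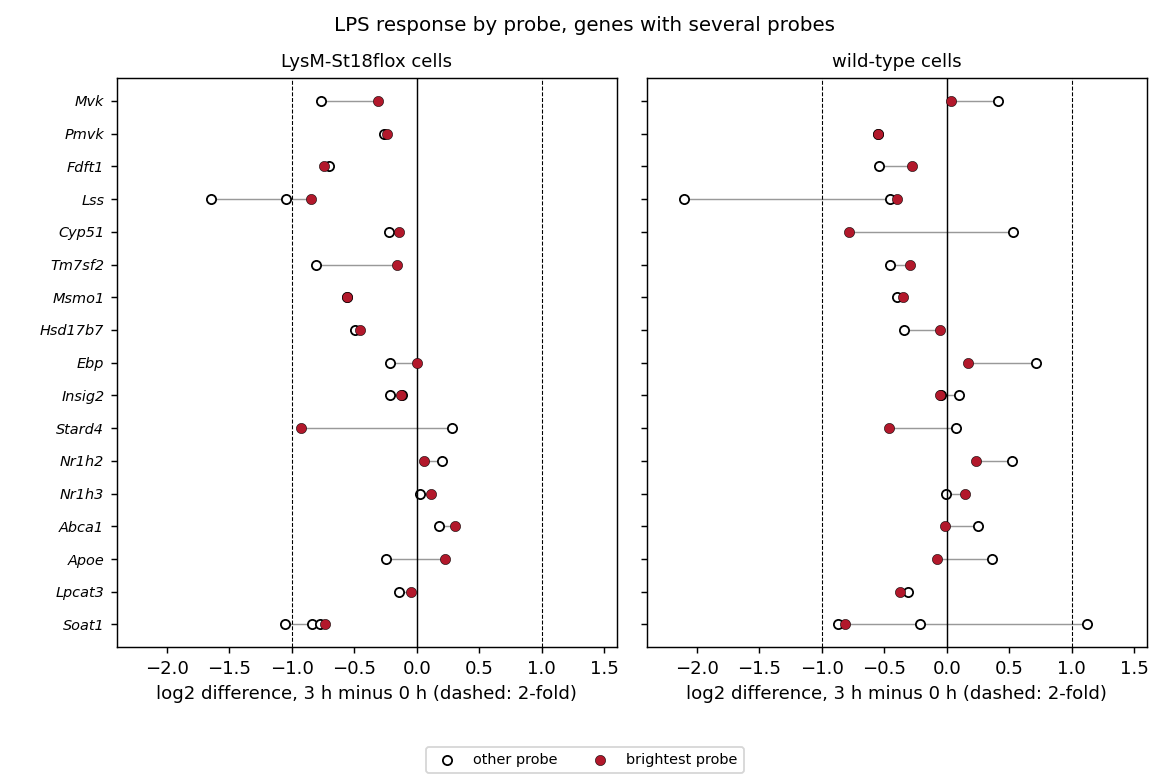
LPS response by probe for the 17 genes with several probes, in LysM-St18flox cells (left) and wild-type cells (right). The horizontal axis is the log2 difference of 3 h minus 0 h, filled points are the brightest probe and open points the others, and dashed lines mark 2-fold. Probes spread further in wild-type cells, with a median standard deviation of 0.20 against 0.09 in LysM-St18flox cells over these genes.

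Other genes of the pathway, 48 in all, were listed for comparison. In LysM-St18flox cells 6 of 41 measured were called higher and 2 lower after LPS, where 8.12% of all genes were called higher and 8.97% lower. In wild-type cells 4 of 43 were called higher and 6 lower, where 9.04% of all genes were called higher and 11.6% lower. Among those called in 1 direction in both genotypes were Gramd1a and Gramd1b, which encode carriers of cholesterol from the plasma membrane to the endoplasmic reticulum, Tspo, a protein of the outer mitochondrial membrane, and Rxra, which encodes the partner receptor of LXR. Gramd1a read 4.39 at LysM-St18flox 3 h, 2.24 at LysM-St18flox 0 h, 4.45 at wild-type 3 h and 1.997 at wild-type 0 h, with log2 differences of 2.15 in LysM-St18flox cells and 2.46 in wild-type cells. Gramd1b was at 1.23 in LysM-St18flox cells and 1.48 in wild-type cells, and Tspo at 1.06 in LysM-St18flox cells and 1.18 in wild-type cells. Rxra read 3.33 at LysM-St18flox 3 h, 4.94 at LysM-St18flox 0 h, 3.39 at wild-type 3 h and 4.94 at wild-type 0 h, with differences of -1.61 in LysM-St18flox cells and -1.55 in wild-type cells. Lcat, which encodes a cholesterol acyltransferase of plasma, was not well above background at LysM-St18flox 0 h and was higher at 3 h there by at least 4.73-fold, and its log2 difference in wild-type cells was 1.35. Between genotypes none of 43 was called at 3 h, and 2 of 41 were called lower at 0 h, Osbp at -1.17 and Apoc2 at -1.05, both named after their values were seen. At 3 h Osbp was at -0.24 and Apoc2 at -0.55. Lcat, which is not among the 41, was lower in LysM-St18flox cells at 0 h by at least 2.13-fold, and its log2 difference at 3 h was -0.19.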

How the data were processed

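Expression was measured on 4 Agilent 1-colour arrays of 1 slide, 1 for each of 2 genotypes at 2 times. The deposited files hold each spot's processed intensity, not scaled between arrays, from Agilent Feature Extraction (version 11.0.1.1, per the submitters' processing notes). The deposited value table holds log2 values of 25482 probes, and its 4 columns have the same distribution, as quantile normalization gives. No source used here names the method.

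Here, control spots and spots flagged as outliers were left out, log2 signals of a probe's repeated spots were averaged, and the 75th percentile of each array's non-control spots was subtracted. Probes were named by matching accessions to RefSeq genes of GRCm38.p6 (32994 of 56605 probes had 1 symbol). A gene counted as tested when its brightest probe was well above background and unsaturated on both arrays. Each comparison is the difference of 2 arrays, so the number of arrays limits the precision, and no p-value was computed. A gene below background on one side is given as a bound against the higher of its own value and the lowest value above background on that array. The steps were tested on simulated data, made from 1 array with small added noise and known changes in genes that were not dim. That test checks the computation and gives no error rate for the calls above. Python 3.11.15, R 4.3.3 and limma 3.58.1 were used.

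The genes, lists and alternatives were chosen with earlier results of these data known. Genes were given all 4 values where at least 2-fold apart in some comparison, or where they encode an SREBP, SCAP or an LXR. Further pathway genes were named where at least 2-fold apart one way in both LPS responses or both genotype differences, except for a result that is not reported here. Hmgcs1, Lss, Cyp51 and other genes given more detail were added after their values were seen. As the files hold median spot signals, normexp used those.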

Additional observations from a re-analysis of the deposited data

Results flagged for a closer look

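Cyp27a1 differed in direction between genotypes: its log2 LPS response was -0.98 in LysM-St18flox cells and 1.27 in wild-type cells, a difference of -2.25, each beyond the median spread between probes of one gene. The difference was not tested, rests on 1 probe and 1 array per group, and was the only one of the 35 genes whose responses had opposite signs and both exceeded that spread. Leaving the wild-type 0 h array aside, the 3 h arrays alone gave a value lower in LysM-St18flox cells by 2.72-fold.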

How the results depend on the processing

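Of the 7 alternatives, leaving out the background filter could change no count or median of the 35 genes, since all were well above background on every array. Moves under the others were judged by a tolerance (1.5 times for counts, the median spread between probes for medians). In LysM-St18flox cells, 2 genes were at least 2-fold lower after LPS with median centring and 2 with normexp correction, against 4 here, and with the stricter filter 0 genes were higher, since Ch25h drops out by its 0 h signal. In wild-type cells normexp correction left 1 gene past 2-fold on the higher side, against 3. The median of the sensing, LXR, efflux and transport genes in LysM-St18flox cells was -0.22 with quantile normalization and -0.21 in the deposited value table, against -0.01, and at 0 h between genotypes it was 0.14 with the mean of all probes, against -0.14. With the mean of all probes the synthesis median in LysM-St18flox cells was -0.48 and its contrast with the other genes -0.42 (-0.47 in wild-type cells). That contrast was smaller with quantile normalization, at -0.13 in LysM-St18flox cells and -0.13 in wild-type cells, and in the deposited value table, at -0.12 in LysM-St18flox cells and -0.12 in wild-type cells. The synthesis median stayed below 0 in both LPS responses under all 7 alternatives, from -0.48 to -0.20 in LysM-St18flox cells and from -0.37 to -0.27 in wild-type cells. So did the median over all genes, from -0.36 to -0.06 in LysM-St18flox cells and from -0.19 to -0.08 in wild-type cells. Without the background filter the all-gene median in LysM-St18flox cells, -0.36, was lower than the synthesis median, -0.24. Leaving out the background filter and the stricter filter both kept every synthesis enzyme, so that the synthesis median was unchanged there and these 2 add no check of it. Cyp27a1 at 3 h between genotypes ranged from -1.44 to -1.07. Counts over all genes moved by over 1.5 times as follows. With normexp correction 757 genes were called lower after LPS in LysM-St18flox cells, against 1164. Between genotypes it gave 137 higher and 96 lower at 3 h, against 237 and 183, and 229 and 251 at 0 h, against 385 and 384. The stricter filter gave 114 and 65 at 3 h and 165 and 203 at 0 h, and the authors' deposited values gave 118 lower at 3 h. Without a background filter the counts were 1835 higher and 2232 lower after LPS in LysM-St18flox cells, 2215 and 2767 in wild-type cells (1138 and 1464 with it), 992 and 1039 between genotypes at 3 h, and 1473 and 1347 at 0 h. Of the values of single genes, 22 moved beyond the tolerance and none of these was a called value that changed sign; the cause was not tested. No paired analysis was possible because the labels give no replicate numbers that pair arrays across groups, and with 1 array per group none was left out. An additive fit of genotype and time, whose only residual is the difference between the LPS responses, was not run.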
